A study of Mus musculus with 40 samples.

Results

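Long non-coding RNA (lncRNA) genes were selected on their level in whole aorta and whole kidney of mice with or without endothelial EGFR, fed a standard diet (SD) or a high-fat diet (HFD). A gene was included when the count tables class it as lncRNA and its mean over the 20 libraries of a tissue was at least 5 CPM, that is, counts per 1000000 counts of the library. This held for 193 of 9963 listed lncRNA genes in aorta and for 212 of 9956 in kidney, 320 genes in all, of which 85 passed in both tissues, 108 in aorta only and 127 in kidney only. In aorta 5360 lncRNA genes had any count, and in kidney 5659. Just inside the limit were Gm53 at 5.04 CPM, Gm4673 at 5.02 and Gm20632 at 5.01 in aorta, and just outside were Gm49708 at 4.996, Gm49207 at 4.96 and Gm28932 at 4.91. In kidney the genes next to the limit were C4a at 5.03, Gm16973 at 5.02 and Gm39078 at 5.01 inside, and Gm15879 at 4.99, 1700052K11Rik at 4.98 and 0610031O16Rik at 4.96 outside. Because levels chose the genes, levels and tissue differences are given as descriptions without a test, while diet and genotype were not used in the choice.

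RNA came from 40 libraries, 5 mice in each of 4 groups per tissue. The EC-EGFR-KO mice (KO) carried EGFR flox/flox alleles and Tek-cre, which removes exon 1 of EGFR where the Tie2 (Tek) promoter is or has been active, in endothelium and also in haematopoietic cells. The EC-EGFR-WT mice (WT) carried the same Cre transgene but no loxP sites, so Cre is shared by all groups, and all mice had a C57BL/6 background. SD provided 10% of energy as fat and HFD 60%, given from 6 weeks of age for 18 weeks. The deletion was not inducible. Neither the sex of the mice nor when tissue was collected is given in the sources used here.

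LncRNAs are transcripts without a known protein product. Some act in the nucleus, such as Neat1, the scaffold of paraspeckles, and Malat1, a speckle-associated RNA. Others are precursors that carry small nucleolar RNAs (snoRNAs) or microRNAs in their introns or exons, and many start from the promoter of a protein-coding neighbour or lie on the strand opposite to it. RNA of whole tissue was measured here, so fewer cells of a type and less RNA per cell cannot be told apart.

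Libraries held 17520161 to 36452741 counts in aorta (median 19683938) and 19643033 to 48833447 in kidney (median 24182781). The lncRNA rows took 0.565 to 0.907% of these counts in aorta and 0.725 to 0.878% in kidney. In each table all 1331 lncRNA genes on chromosomes 9, X, Y and MT are at 0 in every library, so that genes such as Mir100hg and Ftx could not be analysed. The same holds for the end of chromosome 8, where 121 lncRNA genes in the aortic and 120 in the renal table lie beyond the last gene with counts, which starts at 97876154 (GENCODE M21). The library labelled R-1 (WT SD aorta) and that labelled R-12 (KO SD aorta) differed by less than sampling noise (median chi-square over genes 0.0277, next smallest pair 1.60), and so did a1 (KO HFD kidney) and a12 (WT HFD kidney; 0.0269, next smallest 1.62). Counts of genes, and the genes called in kidney, are also given without the pair of that tissue. Egfr, the targeted gene, read 29.4 to 58.6 CPM in WT SD, 35.0 to 49.9 in WT HFD, 34.2 to 53.2 in KO SD and 36.1 to 53.3 in KO HFD aortas, and the groups overlapped in kidney as well, at 44.8 to 63.8, 22.2 to 52.6, 47.3 to 57.1 and 34.1 to 61.9 CPM. KO against WT, its log2 fold change was 0.15 and 0.13 in aorta and -0.09 and 0.06 in kidney on SD and HFD, with adjusted p from 0.917 to 1.00 (edgeR quasi-likelihood test). The gene sums over all cell types of the tissue, so these values do not check the deletion in endothelium.

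Levels were dominated by a few genes. The median gene had 9.89 CPM in aorta and 10.6 CPM in kidney, 11 and 10 genes exceeded 100 CPM, and 98 and 96 were under 10 CPM. The 10 highest held 49.8% of the counts of all 193 genes in aorta and 56.1% of those of the 212 in kidney. Neat1 led both tissues with 817.7 ± 281.1 CPM (SD, n = 20) in aorta and 1207 ± 215 in kidney, followed by Malat1 with 592.4 ± 245.7 and 1015 ± 167. Per kb of exon sequence, which allows for gene length, the order changed. Length here is the union of exons over all transcripts of a gene, and the RNA was poly(A)-selected. Ranks per kb are therefore approximate. The highest genes in aorta were Bvht at 169 CPM per kb (Braveheart, a lncRNA known from cardiovascular development), E030013I19Rik at 106 and Snhg18 at 97.6, with Malat1 at 84.8. In kidney Malat1 led with 145 CPM per kb, ahead of BC024386 at 118, Gm15564 at 94.6, D630029K05Rik at 69.9, Gm19950 at 59.0 and Neat1 at 58.1.

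Many of the chosen genes differed widely between the tissues. Among the 319 genes listed in both tables, 49 were more than 10 times higher in aorta, 72 more than 10 times higher in kidney and 94 within 2-fold. The 20 aortas and 20 kidneys did not overlap for 91 genes on the aortic and 107 on the renal side. Genes could pass the limit of 5 CPM in aorta or kidney alone, so the choice itself favours such differences. The shares over all genes were not computed, so these counts say nothing particular to lncRNAs. The tissues were tabulated separately, so tissue and sequencing run cannot be told apart. On the aortic side, E030013I19Rik, which overlaps the integrin gene Itga8 in antisense, had 398.0 ± 46.8 CPM (SD, n = 20) in aorta and 0.269 ± 0.138 in kidney, a ratio of 1437. Ratios and bounds between tissues were taken on counts pooled over the 20 libraries of a tissue, so they differ from the ratios of the mean CPM, which is 1481 for this gene. Gm830 read 90.4 CPM against 0.0627 (ratio 1484), and the imprinted lncRNA Meg3 137.5 against 1.03 (ratio 134.5). On the renal side, Gm19950, antisense to the medium-chain acyl-CoA ligase gene Acsm1, had 267.0 ± 24.2 CPM in kidney and no count in any aorta, which makes it at least 38280-fold higher (pooled counts, floor of 3 counts over the 20 aortas). BC024386 read 198.0 ± 30.5 CPM in kidney with 1 count in all aortas together, and D630029K05Rik 189.9 against 0.0388 CPM (ratio 4762).

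A set of 21 kidney genes had no count in all aortas, while no aortic gene was at 0 in all kidneys. They include transcripts opposite to or divergent from genes of renal transcription factors. Hnf4aos, antisense to Hnf4a, had 15.3 CPM in kidney, and Lhx1os, divergent from Lhx1, had 20.9 CPM. On pooled counts these are at least 2261- and 3030-fold above the aortic floor. Under 0.1 CPM in the other tissue were 51 of the kidney genes and 12 of the aortic genes.

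**Figure D1:**
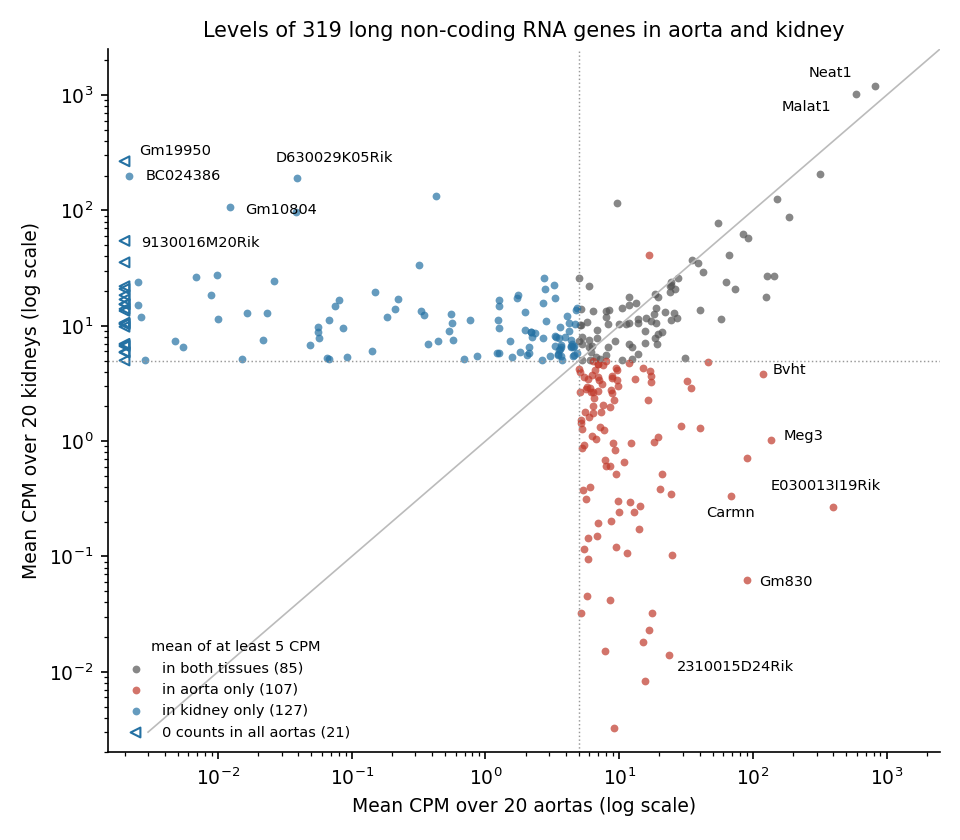
Mean CPM of 319 lncRNA genes in 20 aortas (x axis, log scale) and 20 kidneys (y axis, log scale), where dotted lines mark the limit of 5 CPM, the grey line marks equal levels and triangles at the left edge stand for 21 genes with no count in aorta. Neat1 and Malat1 lie near the line of equal levels, E030013I19Rik and Gm830 far to the aortic side and Gm19950 and BC024386 far to the renal side.

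By position in the GENCODE M21 annotation (GRCm38), 134 of the 320 genes were intergenic, 128 overlapped a protein-coding gene on the other strand, 41 started within 1000 bases of such a gene in the opposite direction and 17 overlapped 1 on the same strand. Here 56 consisted of a single exon block, and the median exon length was 2697 bases in aorta and 2554 in kidney. The annotation calls 4 of them protein-coding (Gm10134, Gm10762, AW011738 and Gm9821), unlike the count tables. Precursors were common: 20 genes held at least 1 snoRNA and 17 at least 1 microRNA. The strand setting of the counting is not given in the sources used here, so reads of a gene and its antisense partner may be split or shared between them.

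Mature microRNA sequences were taken from RefSeq (GRCm38.p6) for 14 of the 17 microRNA hosts. Carmn, a listed microRNA host of the aortic set, is not among the 14, because its chromosome was left out of the search. Hosts of the let-7 family are shown because 3 aortic genes carry them and, as described further on, vary together between aortas. Let-7 microRNAs are known for roles in development and cell differentiation. Their levels were not measured in this poly(A)-selected RNA, only those of the precursor genes. Capitals mark the seed, bases 2 to 8, which is GAGGUAG in all of the following let-7 sequences.
mmu-let-7a-5p (6720427I07Rik, chr13:48538239-48538260, minus strand): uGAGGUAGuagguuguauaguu
mmu-let-7d-5p (6720427I07Rik, chr13:48536078-48536099, minus strand): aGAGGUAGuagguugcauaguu
mmu-let-7f-5p (6720427I07Rik, chr13:48537889-48537910, minus strand): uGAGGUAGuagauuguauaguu
mmu-let-7b-5p (Lncppara, chr15:85707325-85707346, plus strand): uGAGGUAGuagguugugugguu
mmu-let-7c-5p (Lncppara, chr15:85706616-85706637, plus strand): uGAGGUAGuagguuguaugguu
mmu-let-7c-5p (Mir99ahg, chr16:77599672-77599693, plus strand): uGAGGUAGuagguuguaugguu
Other hosts carry families with a seed of their own, shown here for miR-22 and the miR-29 and miR-17 families. In the miR-29 pair of A330023F24Rik the seed is AGCACCA, and AAAGUGC in the pair from Mir17hg.
mmu-miR-22-3p (Mir22hg, chr11:75463772-75463793, plus strand): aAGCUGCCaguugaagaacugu
mmu-miR-29b-3p (A330023F24Rik, chr1:195037091-195037113, plus strand): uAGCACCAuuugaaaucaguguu
mmu-miR-29c-3p (A330023F24Rik, chr1:195037600-195037621, plus strand): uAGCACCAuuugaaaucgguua
mmu-miR-17-5p (Mir17hg, chr14:115043684-115043706, plus strand): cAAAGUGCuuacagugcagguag
mmu-miR-20a-5p (Mir17hg, chr14:115044183-115044205, plus strand): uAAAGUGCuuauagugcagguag

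HFD changed lncRNAs in kidney. To be called, a gene needed an adjusted p under 0.05 and a change of more than 1.5-fold, and 1 of the groups compared had to average above 5 FPM (fragments per 1000000, on TMM-scaled libraries). In WT, 12 of 212 genes (5.66%) were called, 5 higher and 7 lower on HFD, where 2.18% of all 15943 genes tested were called (1.27% higher and 0.909% lower). In KO, 9 of 212 (4.25%) were called, 5 higher and 4 lower, where 2.16% of all genes were called (1.23% higher and 0.928% lower). The 212 genes were chosen at a mean of at least 5 CPM. All genes tested include genes below 5 FPM, which the rule cannot call, so these shares do not compare like with like. The median log2 fold change of the 212 genes was -0.05 in WT and -0.01 in KO, beside 0.00 over all genes in both. That of WT was 0.01 without a18 (109 of 212 positive) and -0.10 without a17 (81 positive). By the adjusted p alone, 21 genes passed in WT (9.91%, all genes 6.71%) and 19 in KO (8.96%, all genes 6.34%). Both genotypes together gave 15 called genes, 6 of them called in both, and the sign was the same in both genotypes for all 15. WT and KO comparisons use separate mice apart from the pair a1 and a12, and no interaction of diet and genotype passed (adjusted p = 1.00 for each of the 15). Without a1 and a12, 13 genes were called in WT and 10 in KO. Gm17750 lost its call in WT and 4833413G10Rik in KO. Airn was among the genes that joined in WT, and AI506816 and 2900005J15Rik joined in KO.

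Gm14964 rose in both genotypes. It is a short transcript of 760 exon bases (chromosome 19, 6530711 to 6532011, minus strand) antisense to the neurexin gene Nrxn2. In WT kidneys it read 4.33, 5.10, 6.32, 5.53 and 5.47 CPM on SD and 11.8, 12.1, 12.99, 11.6 and 12.3 on HFD. In KO kidneys its values were 6.11, 6.54, 5.63, 4.49 and 7.30 on SD and 11.8, 12.6, 9.63, 13.4 and 12.8 on HFD. Every HFD library lay above every SD library in both genotypes. The log2 fold changes were 1.10 (SE 0.13, adjusted p = 2.45e-05) in WT and 0.99 (SE 0.13, adjusted p = 7.10e-05) in KO by edgeR. Without a1 and a12 they were 1.08 and 0.98, still called.

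Gm9951, an intergenic lncRNA on chromosome 8 (34049262 to 34057046, plus strand), behaved likewise. Its WT values were 3.70, 4.29, 5.28, 6.08 and 4.89 CPM on SD and 7.19, 8.19, 8.78, 12.1 and 12.1 on HFD. In KO they were 3.58, 5.31, 3.85, 3.45 and 5.12 and 8.24, 6.01, 12.99, 8.92 and 12.6. Groups did not overlap in either genotype, with a wider spread on HFD than for Gm14964. HFD gave log2 fold changes of 0.91 (SE 0.20, adjusted p = 0.00758) in WT and 1.17 (SE 0.20, adjusted p = 0.000962) in KO, and 0.95 and 1.22 without a1 and a12. Gm17750, an intergenic lncRNA (chromosome 13, 84025297 to 84064772, minus strand) without a count in any aorta, read 4.78, 3.36, 3.81, 3.97 and 3.79 on SD and 5.01, 8.58, 4.61, 7.47 and 7.03 on HFD in WT. In KO its CPM was 4.39, 5.76, 4.30, 4.37 and 5.30 on SD and 8.49, 8.65, 6.05, 8.43 and 9.30 on HFD. The KO groups were apart, while those of WT overlapped. Fold changes on the log2 scale were 0.66 (SE 0.17, adjusted p = 0.0256) and 0.75 (SE 0.17, adjusted p = 0.0107), and in WT the call was lost without a1 and a12 (0.51, adjusted p = 0.0837). With a8, a9 and a17 left out neither genotype passed for Gm17750. Its WT call held in 4 of 10 refits that left out 1 kidney, and was lost without a12, a14, a15, a17, a19 or a20. With only the groups compared the WT call was lost too. In KO the call held in all 10 refits that left out 1 kidney.

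Called in 1 genotype only were Gm20559 and Gm53 in WT and Gm10451 and Gm15318 in KO, all higher on HFD. For Gm10451 the KO values were 6.66, 6.13, 5.81, 4.41 and 6.81 CPM on SD and 10.9, 8.09, 13.3, 12.2 and 10.02 on HFD, without overlap, and the log2 fold changes were 0.86 (SE 0.20, adjusted p = 0.01) in KO and 0.45 (SE 0.20, adjusted p = 0.204) in WT. Its WT groups overlapped. Gm15318, antisense to the trefoil factor gene Tff1, gave 0.62 (SE 0.17, adjusted p = 0.0323) in KO and 0.33 (SE 0.17, adjusted p = 0.296) in WT. Gm53, the Hoxb9 neighbour with 26.2 CPM on average, gave 0.62 (SE 0.14, adjusted p = 0.00919) in WT and 0.47 (SE 0.14, adjusted p = 0.0493) in KO, under the fold limit. Gm20559 gave 0.65 (SE 0.14, adjusted p = 0.00726) and 0.25 (SE 0.14, adjusted p = 0.354). For none of these 4 was the difference between genotypes past the threshold (interaction adjusted p = 1.00). When any 1 of the 10 KO kidneys was left out Gm10451 stayed called. Leaving out 1 of the 10 kidneys of the genotype concerned, Gm20559 was lost without a18, Gm53 without a13, a14 or a16, and Gm15318 without a3, a5, a6, a9 or a10, with adjusted p over all refits of at most 0.0307, 0.0309 and 0.0823, so that Gm20559 and Gm53 were lost on the size of the fold. Without a1 and a12, Gm10451 and Gm15318 stood at 0.84 and 0.65 in KO, and Gm20559 and Gm53 at 0.72 and 0.72 in WT, called as before.

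The promoters of Gm17750 and Gm15318, both kidney genes at 0 in aorta, are shown with 250 bases before and 50 after the RefSeq start (GRCm38.p6), at chr13:84064725-84065024, minus strand and chr17:31152502-31152801, plus strand. Capitals mark, on either strand, the TATA box (TATAAA) and the steroid receptor half-site (AGAACA), which occur in 4470 and 6226 of 32817 promoters of the same length.
Gm17750: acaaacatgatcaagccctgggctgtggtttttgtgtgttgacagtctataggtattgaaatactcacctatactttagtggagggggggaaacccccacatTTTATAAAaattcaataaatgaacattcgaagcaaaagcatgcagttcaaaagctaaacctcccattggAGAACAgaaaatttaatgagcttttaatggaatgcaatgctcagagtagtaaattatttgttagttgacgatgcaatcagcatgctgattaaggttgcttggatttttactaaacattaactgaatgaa
Gm15318: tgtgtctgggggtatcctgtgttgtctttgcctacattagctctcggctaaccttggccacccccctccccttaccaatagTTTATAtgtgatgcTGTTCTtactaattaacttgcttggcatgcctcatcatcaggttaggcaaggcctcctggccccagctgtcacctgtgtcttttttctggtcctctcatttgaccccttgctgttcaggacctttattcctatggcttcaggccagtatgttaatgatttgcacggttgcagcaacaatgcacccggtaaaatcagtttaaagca
Gm17750 held 2 TATA boxes overlapping each other and 1 steroid receptor half-site at 36.0% GC. Gm15318 held 1 TATA box and 1 steroid receptor half-site at 47.7% GC. The median GC of all promoters was 52.7%. A match is a description of letters, not a bound site.

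Gm4208 showed the largest fall in WT. It is an intergenic lncRNA (chromosome 1, 62821355 to 62832370, minus strand), 497.7 times higher in kidney than in aorta on pooled counts. On SD it read 20.7, 11.9, 31.2, 16.6 and 13.4 CPM in WT and 14.6, 24.3, 14.1, 23.2 and 20.3 in KO, and on HFD 3.47, 8.80, 4.57, 3.57 and 6.79 and 8.51, 5.45, 10.3, 5.70 and 9.11. Within each genotype every HFD library lay below every SD library. Its log2 fold change was -1.85 (SE 0.32, adjusted p = 0.000983) in WT and -1.32 (SE 0.31, adjusted p = 0.0118) in KO. Without a1 and a12 it was -2.14 and -1.37.

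Gm14257 (chromosome 2, 155593565 to 155594475, minus strand), whose nearest coding gene is the glutathione synthetase gene Gss, fell by a smaller but even amount. The SD values were 7.36, 5.31, 7.07, 6.16 and 6.17 CPM in WT and 7.82, 7.03, 6.27, 6.49 and 6.41 in KO, and the HFD values 3.60, 4.18, 4.25, 3.33 and 4.21 and 4.20, 3.62, 2.82, 3.68 and 4.22. Groups were apart in both genotypes. This was a log2 fold change of -0.79 (SE 0.14, adjusted p = 0.00127) in WT and -0.89 (SE 0.14, adjusted p = 0.000464) in KO, and of -0.84 and -0.95 without a1 and a12.

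C4a, a complement C4 paralog also known as sex-limited protein and classed as lncRNA in the count table (chromosome 17, 34809092 to 34823464, minus strand), fell while its close paralog C4b rose. C4a read 9.15, 4.76, 8.06, 5.30 and 8.84 CPM on SD and 2.91, 2.95, 3.32, 2.97 and 2.53 on HFD in WT, and 12.4, 5.22, 6.36, 6.57 and 5.03 and 2.99, 1.99, 3.90, 1.52 and 3.88 in KO. Groups were apart in both genotypes, and a6 stood high among KO SD kidneys. The log2 fold changes were -1.38 (SE 0.28, adjusted p = 0.00362) in WT and -1.33 (SE 0.28, adjusted p = 0.005) in KO, and -1.41 and -1.36 without a1 and a12. For C4b, the protein-coding gene of complement component 4, WT values were 8.38, 10.4, 10.96, 10.8 and 9.87 CPM on SD and 16.9, 17.1, 30.6, 17.9 and 15.2 on HFD, and KO values 13.4, 6.50, 11.9, 7.40 and 15.1 and 17.01, 23.01, 26.6, 25.7 and 13.4. Its groups were apart in WT and overlapped in KO. The log2 fold changes of C4b were 0.87 (SE 0.23, adjusted p = 0.026) in WT and 0.94 (SE 0.23, adjusted p = 0.016) in KO. Reads of near-identical copies can be split between both, and how reads with several positions were counted is not given in the sources used here.

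**Figure D2:**
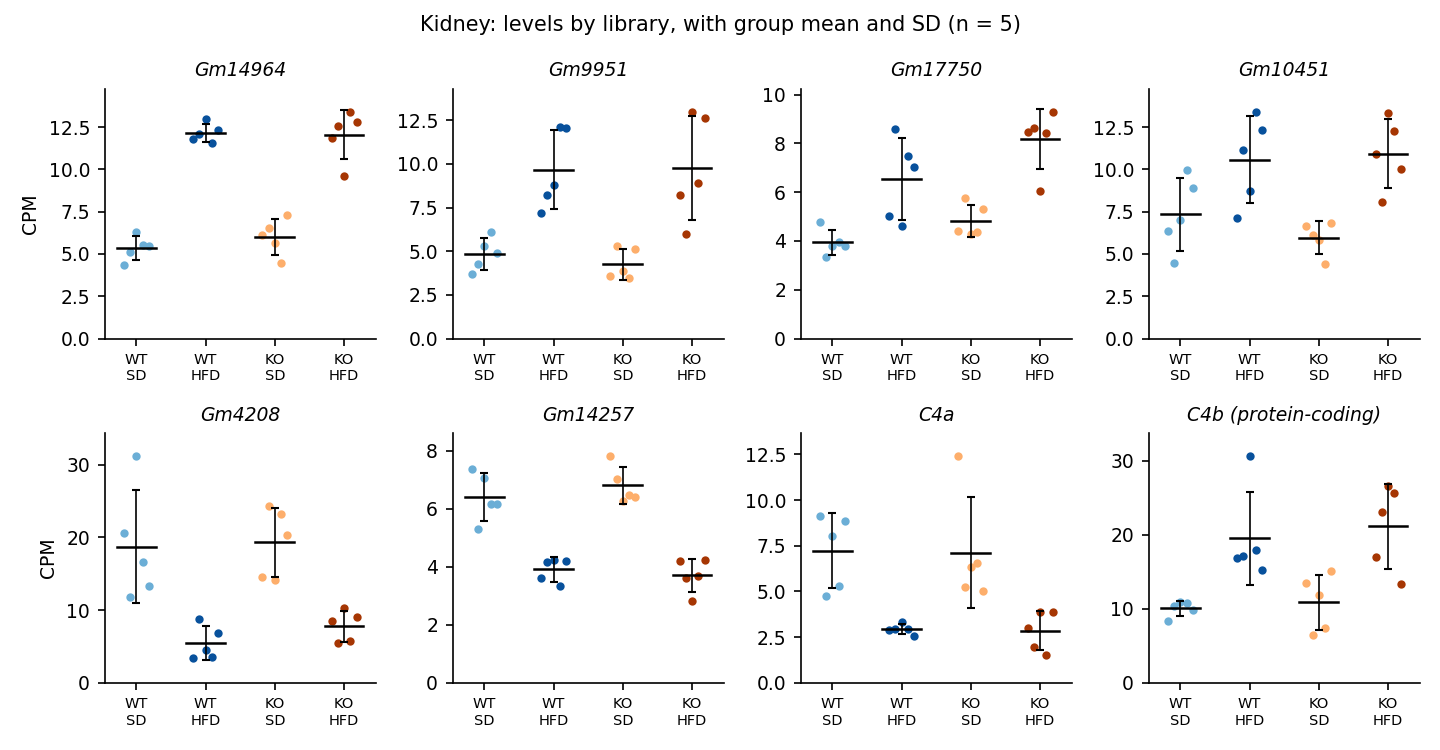
CPM (y axis, from 0) in each of 5 kidneys per group for 7 lncRNA genes and C4b, with group means (lines) and SD (bars), WT in blue and KO in orange (HFD darker). HFD groups lie above SD groups for Gm14964 and Gm9951 and below them for Gm4208, Gm14257 and C4a, while C4b rose.

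A further 5 genes that fell passed in 1 genotype. In WT, Snhg15, a snoRNA host, was lower at -0.78 (SE 0.21, adjusted p = 0.0246), Gm15848, antisense to the Fc receptor gene Fcamr, at -0.78 (SE 0.20, adjusted p = 0.023), Gm45645, antisense to the synaptic gene Erc2, at -0.76 (SE 0.19, adjusted p = 0.017), and Zbtb11os1, antisense to Zbtb11, at -0.62 (SE 0.18, adjusted p = 0.0461). In KO they were -0.49, -0.17, -0.58 and -0.32 and not called. The WT values without a1 and a12 were -0.87, -0.81, -0.76 and -0.67 (adjusted p = 0.0234, 0.0339, 0.0328 and 0.0492), called as before. In KO, 4833413G10Rik was called at -0.63 (SE 0.17, adjusted p = 0.0226), and -0.41 in WT. Without a1 and a12 its log2 fold change was -0.58, under the fold limit. Leaving out 1 of the 10 kidneys of the genotype ended the call for Snhg15 (a13, a14, a15 or a17), Gm15848 (a13, a14, a15 or a18), Gm45645 (a11 or a14), Zbtb11os1 (7 of 10 kidneys) and 4833413G10Rik (6 of 10), with adjusted p over all refits of at most 0.0807, 0.0848, 0.0539, 0.173 and 0.0679. Snhg15 read 6.12, 8.33, 5.76, 6.19 and 4.89 CPM on SD and 3.94, 4.44, 2.96, 4.05 and 3.72 on HFD in WT, with groups apart, and 4.44, 4.89, 7.51, 8.40 and 4.14 and 4.49, 5.50, 3.31, 4.12 and 3.74 in KO, with overlap. Its 3 highest kidneys were a17, a8 and a9.

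**Figure D3:**
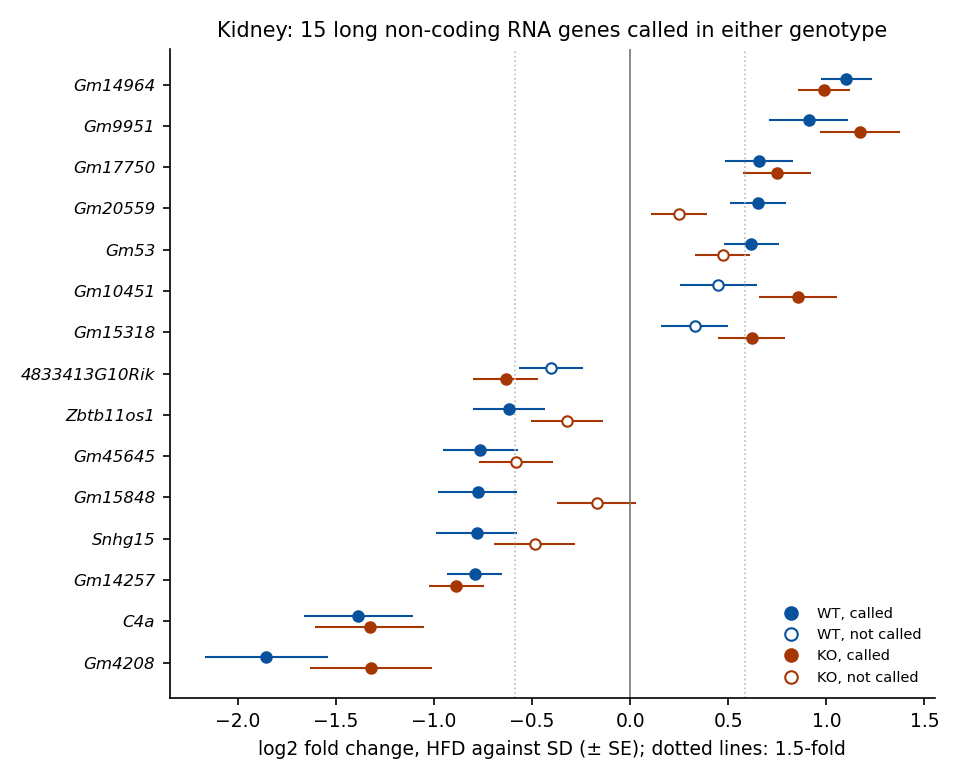
Log2 fold change of HFD against SD (x axis) with its standard error for the 15 lncRNA genes called in either genotype, WT in blue and KO in orange, where filled points were called. Points of WT and KO lie on the same side of 0 for each gene, and the widest gap is that of Gm15848, -0.78 in WT and -0.17 in KO.

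Some markers of other kinds moved with these genes. The summed CPM of 6 male-biased renal genes was 23720 to 41450 on SD and 14540 to 23140 on HFD, ranges that did not overlap. Most of this sum was Kap (kidney androgen-regulated protein), at 20710 to 38490 CPM on SD and 12730 to 21370 on HFD. The log2 fold change of Kap was -0.80 (SE 0.17, adjusted p = 0.00698) in WT and -0.57 (SE 0.17, adjusted p = 0.0565) in KO. The sum of 4 female-biased renal genes overlapped between diets, at 3577 to 5022 CPM on SD and 4032 to 4762 on HFD. Of 10 adipocyte markers, Lpl, which the kidney also expresses, read 737 to 1450 CPM on SD and 214 to 494 CPM on HFD, while the other 9 summed to 33.4 to 291 and 53.0 to 245 CPM. Immediate-early genes (8 measured, sum 65.8 to 1852 CPM on SD and 76.8 to 182.6 on HFD) were high in a8, a9 and a17, all on SD, the kidneys in which Snhg15 was highest. Without these 3 libraries 11 genes were called in WT and 11 in KO, Snhg15 in WT among them. In KO, whose SD group holds a8 and a9, Snhg15 was not called. Its log2 fold change there ranged from -0.60 to -0.08 over all refits. The part of these markers in the lncRNA results was not tested. Tubular and glomerular markers were present throughout, at 10400 to 13330 CPM in sum.

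The promoter of Snhg15 (RefSeq, GRCm38.p6, chr11:6528711-6529010, minus strand) is shown because of the immediate-early values beside it. Capitals mark an E-box (CACGTG, in 7.15% of all promoters), a cAMP response element (TGACGTCA, 1.79%) and a GC box (GGGCGG, 35.6%), each found once, in 64.7% GC. These matches describe letters only, and a link between them and the immediate-early genes was not tested.
Snhg15: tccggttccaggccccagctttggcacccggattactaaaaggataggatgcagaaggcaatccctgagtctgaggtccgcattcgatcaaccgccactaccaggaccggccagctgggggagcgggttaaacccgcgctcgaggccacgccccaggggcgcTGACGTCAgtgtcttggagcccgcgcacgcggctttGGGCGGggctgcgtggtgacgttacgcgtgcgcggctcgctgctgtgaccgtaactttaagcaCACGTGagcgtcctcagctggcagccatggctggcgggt

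A further 10 genes passed the adjusted p in at least 1 genotype but were called in neither. BC024386, the second of the kidney genes per kb, read 251, 193, 243, 201 and 220.4 CPM on SD and 189, 177, 177, 164 and 172 on HFD in WT, and 240.5, 248, 212, 195 and 225 and 176, 160.3, 179, 156 and 181 in KO. Groups were apart in both genotypes, at -0.42 (SE 0.09, adjusted p = 0.00907) and -0.41 (SE 0.09, adjusted p = 0.00993). AI506816, 0610006L08Rik and Gm15638 were likewise apart in both genotypes, at 0.44, -0.48 and -0.51 in WT and 0.58, -0.35 and -0.51 in KO on the log2 scale. The last 3 were chosen after their values were seen. With a1 and a12 left out, AI506816 was called in KO (0.61, adjusted p = 0.00817) and 0610006L08Rik no longer passed in KO (-0.35, adjusted p = 0.0648), while Gm15638 stood at -0.54 and -0.52 and BC024386 at -0.44 and -0.43.

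Partner genes on the other strand or at the same promoter did not always move with the lncRNA. Over the pairs with exon overlap in antisense, 42 of 66 had the same sign of change in WT and 41 of 66 in KO, and over divergent pairs 22 and 23 of 39. Where the antisense overlap lay in introns only, 17 of 26 had the same sign in WT and 16 of 26 in KO. Gm15848 with Fcamr and Gm19950 with Acsm1 are pairs of this last kind. Gm45645 and Erc2 both fell in WT, Erc2 at -0.54 (SE 0.15, adjusted p = 0.0358), and so did Gm15848 and Fcamr, where Fcamr was at -0.71 (SE 0.20, adjusted p = 0.0355). Gm19950, at -0.29 in WT (adjusted p = 0.0098) and -0.24 in KO (adjusted p = 0.0337), lay below the fold limit as did Acsm1, at -0.48 (SE 0.11, adjusted p = 0.0119) and -0.39 (SE 0.11, adjusted p = 0.0417). In KO, Gm19950 no longer passed without a1 and a12 (-0.25, adjusted p = 0.0516). For Gm14964 the partner Nrxn2 stood at 0.38 (SE 0.12, adjusted p = 0.0598) and 0.17 (SE 0.12, adjusted p = 0.465), not past the threshold. Gm17750 lies 157524 bases from Tmem161b, which changed by -0.35 (SE 0.07, adjusted p = 0.00465) in KO, opposite in sign to the lncRNA.

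2900005J15Rik, chosen after its values were seen, shares a promoter region with Prkag2, the gene of a gamma subunit of the energy sensor AMPK. Its start lies 333 bases from that of Prkag2 in RefSeq and their 300-base windows share 168 bases. The lncRNA read 5.61, 4.59, 5.80, 5.84 and 4.40 CPM on SD and 8.01, 7.02, 8.70, 7.63 and 7.68 on HFD in WT, and 4.997, 5.84, 5.68, 4.99 and 4.85 and 7.19, 7.79, 8.33, 7.76 and 8.39 in KO. Groups were apart in both genotypes, at 0.49 (SE 0.11, adjusted p = 0.0074) in WT and 0.56 (SE 0.11, adjusted p = 0.00224) in KO, under the fold limit, which it passed in KO without a1 and a12. Prkag2 itself stood at 0.20 (SE 0.07, adjusted p = 0.0722) and 0.38 (SE 0.07, adjusted p = 0.000962). The promoter at chr5:25100725-25101024, plus strand held 3 GC boxes (GGGCGG on either strand, in capitals) in 75.7% GC.
2900005J15Rik: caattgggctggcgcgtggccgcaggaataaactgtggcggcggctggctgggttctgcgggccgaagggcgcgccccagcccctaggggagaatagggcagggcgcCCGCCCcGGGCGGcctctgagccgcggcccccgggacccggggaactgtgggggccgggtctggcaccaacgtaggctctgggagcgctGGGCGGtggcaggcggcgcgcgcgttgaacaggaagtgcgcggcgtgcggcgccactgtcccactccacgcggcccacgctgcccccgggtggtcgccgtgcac

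**Figure D4:**
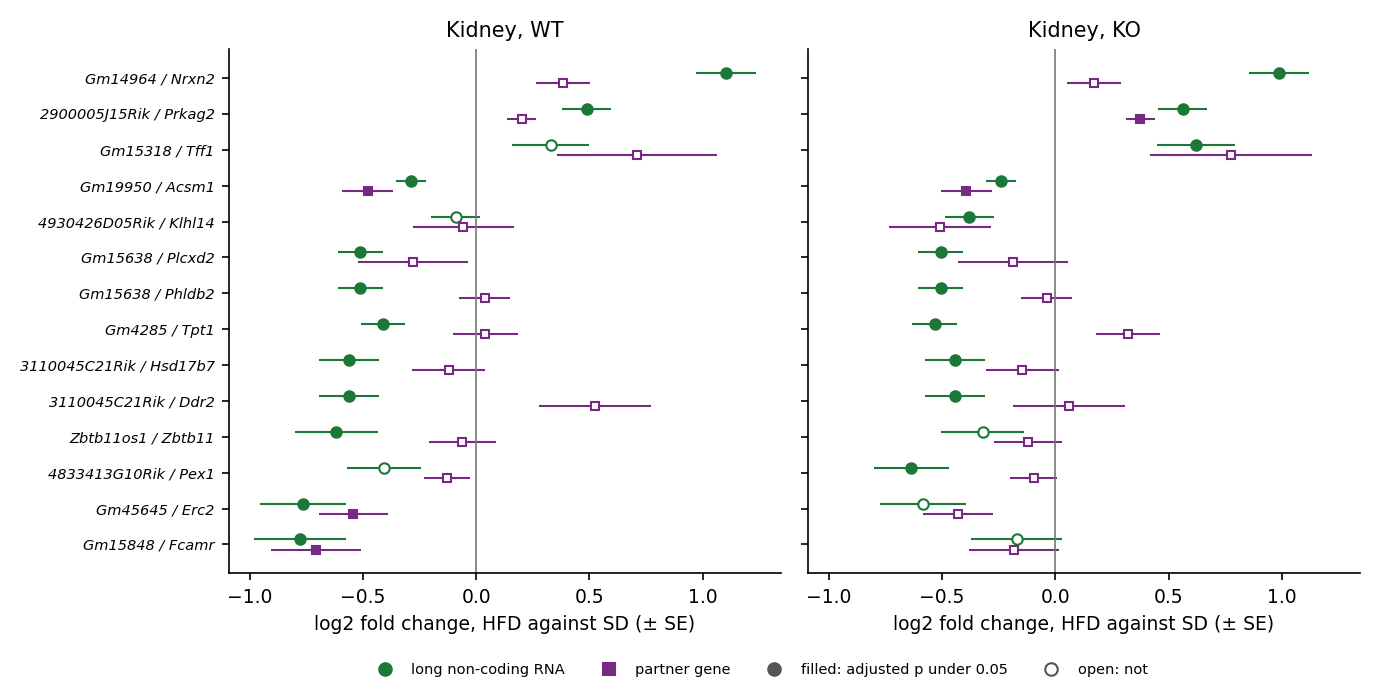
Log2 fold change of HFD against SD (x axis) with its standard error in kidney for lncRNA genes (circles) and the genes that overlap them or share their promoter (squares), in WT (left) and KO (right), filled where the adjusted p was under 0.05. Erc2 and Fcamr were filled in WT only, Prkag2 in KO only and Acsm1 in both.

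Known lncRNAs were also grouped by role. Of 22 snoRNA host genes, 14 were included in aorta and 15 in kidney, and only Snhg15 was called, in WT kidney, 1 of 15 beside 5.66% of the 212 genes and 2.18% of all genes. Their median log2 fold change for HFD in kidney was -0.10 in WT (4 of 15 positive) and 0.06 in KO (11 of 15 positive), beside a median of 0.00 over all genes. KO against WT on HFD, 13 of 15 were positive with a median of 0.16, none called, beside 122 of the 212 genes (median 0.05) and a median of -0.01 over all genes. Leaving out a1 and a12 gave medians of -0.20 and 0.05 for HFD in WT and KO, and 0.21 for KO against WT on HFD. Of 16 microRNA hosts 5 and 4 were included, of 11 imprinted lncRNAs 6 and 3, of 13 nuclear or abundant lncRNAs 6 and 4, and of 21 Hox and developmental antisense lncRNAs 3 and 5, with 0 called in every comparison under edgeR. The imprinted Airn was called in WT kidney without a1 and a12 (-0.70, adjusted p = 0.0319). Lists of 3 to 6 genes are too small for a count of 0 to be read. Median log2 fold changes for HFD in kidney were -0.23 in WT and -0.31 in KO for the microRNA hosts, 0.08 and -0.05 for the imprinted, 0.11 and 0.02 for the nuclear (Malat1, Neat1, Oip5os1 and Tug1) and -0.07 and -0.03 for the Hox and developmental genes. In aorta they were 0.05 and -0.14 for snoRNA hosts, -0.13 and -0.47 for microRNA hosts, 0.02 and -0.03 for imprinted, -0.04 and -0.02 for nuclear and 0.07 and -0.24 for Hox and developmental genes. The cited medians of these 4 other lists moved by at most 0.07 on the log2 scale without the near-identical pair of the tissue.

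HFD changed no lncRNA of the aortic set past the thresholds. In WT 0 of 193 genes were called by edgeR (all genes 0.00661%) and in KO 0 (all genes 0%), while 3 and 7 had an unadjusted p under 0.05, which were 3 and 8 with the DESeq2 Wald test. These are 1.55% and 3.63% of the genes, beside 2.61% and 4.56% of all genes. Leaving out 1 aorta gave 2 to 8 in WT, with 8 without R-10, and 2 to 23 in KO, with 2 without R-20 and 23 without R-16, and without R-1 and R-12 they were 2 and 6. With an adipocyte score in the fit, WT had 13. Atcayos, antisense to the caytaxin gene Atcay, had the smallest p. It read 19.2, 27.9, 23.04, 15.1 and 18.9 CPM on SD and 15.6, 11.9, 16.6, 12.7 and 12.9 on HFD in WT, and 22.6, 18.5, 24.6, 20.1 and 20.1 and 20.1, 12.8, 13.1, 14.5 and 11.02 in KO. The groups overlapped in both genotypes, at -0.55 (SE 0.18, adjusted p = 1.00) and -0.55 (SE 0.18, adjusted p = 0.987). In KO 53 of 193 genes had a positive change (median log2 fold change -0.14, all genes -0.01), and 67 of 193 without R-5, R-10 and R-20 (median -0.07). Without R-11, the KO SD aorta with 60.3 CPM of lymphoid markers (other KO SD aortas 2.02 to 3.36), it was 75 of 193 (-0.07). Without R-16, the KO HFD aorta with 114 CPM of these markers (other KO HFD aortas at most 4.49), it was 44 (-0.20), without both 53 (-0.16), and without R-1 and R-12 53 (-0.15).

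The spread between aortas was wider than that between kidneys. Within groups the SD of log2(CPM + 0.5) had a median of 0.392 over the aortic genes and 0.246 over the renal genes, and the first axis of the within-group deviations held 60.1% of the variance in aorta and 33.2% in kidney. R-5 (WT SD), R-10 (WT HFD) and R-20 (KO HFD), with the lowest lncRNA shares (0.565, 0.625 and 0.617% of counts), were the 3 lowest aortas for 58 of 193 genes (30.1%), against 12.0% of all genes tested, and the 3 highest for 9 of 193, against 1495 of 15122. These aortas were singled out by their lncRNA share, so the counts restate that choice and nothing is read from them. Bvht, with 16.7 to 257 CPM across aortas, weighed strongly on this axis, as did Snhg20, Mir99ahg and Gm26532. Leaving out these 3 aortas gave 0 called genes again in each comparison.

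The 3 let-7 hosts, noticed after their values were seen, were all among the 8 genes with the highest positive weight. Mir99ahg, host of let-7c, miR-99a and miR-125b, read 35.04, 60.5, 38.2, 22.6 and 6.60 CPM in WT SD, 39.3, 45.5, 49.9, 27.4 and 10.2 in WT HFD, 58.5, 35.1, 24.9, 17.4 and 19.2 in KO SD and 48.2, 21.1, 25.6, 29.1 and 6.50 in KO HFD. The last values of WT SD, WT HFD and KO HFD are those of R-5, R-10 and R-20, and each was the lowest of its group. Lncppara, host of let-7b and let-7c, had 12.6, 27.5, 23.5, 14.1 and 3.62 CPM in WT SD, 19.6, 13.1, 17.6, 12.6 and 6.21 in WT HFD, 30.2, 11.7, 20.5, 17.3 and 13.6 in KO SD and 28.6, 15.2, 14.6, 17.6 and 7.02 in KO HFD. For 6720427I07Rik, host of let-7a, let-7d and let-7f, the levels were 11.5, 22.97, 23.04, 15.3 and 2.37, 16.2, 10.2, 16.7, 9.07 and 5.76, 17.6, 11.4, 8.44, 7.67 and 12.9 and 22.5, 4.94, 8.91, 5.24 and 4.43 CPM in the same order. R-5, R-10 and R-20 were the lowest of their groups for all 3 hosts. These aortas also lie lowest on the first axis, so the high weight of the hosts already implies low values there. Nothing is read from it. Diet and genotype groups overlapped for each of them, and no comparison passed (adjusted p 0.919 to 1.00).

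**Figure D5:**
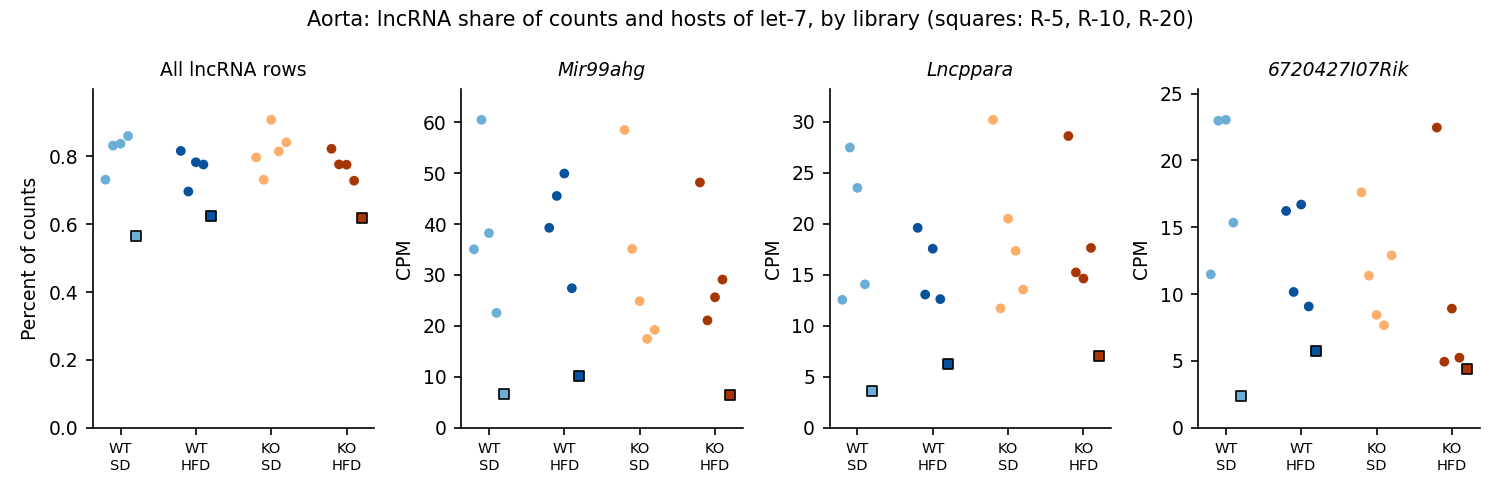
Share of counts in lncRNA rows (left, percent) and CPM of 3 let-7 host genes (y axes from 0) in the 20 aortas by group, where squares mark R-5, R-10 and R-20. In each panel the squares are the lowest points of their groups.

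Deletion of endothelial EGFR gave no lncRNA past an adjusted p of 0.05 in either tissue. In aorta 0 of 193 genes were called on SD and on HFD (all genes 0% in both), with 2 and 8 at an unadjusted p under 0.05 in edgeR (1.04% and 4.15%, beside 2.28% and 5.85% of all genes) and 2 and 11 in DESeq2. Leaving out 1 aorta gave 0 to 8 on SD and 4 to 25 on HFD, with 25 without R-16 and 24 without R-10, and without R-1 and R-12 they were 5 and 8. With an adipocyte score there were 18 on SD, and without R-11 and R-16 there were 28 on HFD. In kidney 0 of 212 were called on SD and on HFD (all genes 0%), with 2 and 5 unadjusted in edgeR (0.943% and 2.36%, beside 2.67% and 3.42% of all genes) and 2 and 8 in DESeq2. Leaving out 1 kidney gave 1 to 11 on SD, with 11 without a18, and 2 to 27 on HFD, with 27 without a12 and 22 without a3, and without a1 and a12 they were 2 and 14. The interaction of diet and genotype gave 0 calls in aorta and in kidney (all genes 0%), with 0 and 3 unadjusted (0 and 4 in DESeq2), beside 0.84% and 1.79% of all genes. Leaving out 1 library gave 0 to 3 in aorta and 0 to 9 in kidney, with 9 without a17, an adipocyte score gave 6 in aorta, and without a1 and a12 there were 5 in kidney. Gm4673, the aortic gene with the smallest p on HFD, read 5.56, 4.64, 5.19, 6.62 and 5.54 CPM in WT HFD and 3.37, 4.94, 4.61, 3.23 and 3.37 in KO HFD. Its groups overlapped, at -0.53 (SE 0.16, adjusted p = 0.525). AW112010, a lncRNA known to be induced in immune cells, read 8.98, 6.96, 2.12, 6.13 and 5.65 CPM in WT SD and 9.16, 8.998, 6.66, 9.57 and 21.4 in KO SD, at 0.86 (SE 0.39, adjusted p = 1.00), with R-15 highest. In kidney, Eprn stood at 0.34 (SE 0.15, adjusted p = 1.00) on SD, and B930095G15Rik at -0.36 (SE 0.13, adjusted p = 0.814) on HFD.

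Some genes stood out in the kidneys a1 and a12 alone, and were chosen after their values were seen. Gm42031 read 80.4 CPM in a1 and 42.6 in a12, against 3.11 to 9.90 in the other 18 kidneys, and Gm47381 13.7 and 15.9 against 3.60 to 5.87. Of the 212 genes, 211 lay within 1.2-fold between a1 and a12, and of the 193 aortic genes 192 did between R-1 and R-12.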

How the data were processed

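Poly(A)-selected RNA of 20 aortas and 20 kidneys was sequenced as paired reads. Per the labels and the submitters' processing notes, the authors aligned reads to mm10 with HISAT2 2.1.0 and counted them with featureCounts, and the raw counts per gene were deposited, 1 table per tissue. The published methods name TopHat2, while neither the strand setting nor the treatment of multi-mapped reads is given in the sources used here.

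CPM was computed from the counts over all rows. Every gene that passed filterByExpr was fitted in edgeR 4.0.16 (R 4.3.3; TMM, robust quasi-likelihood test, 4 groups in 1 fit per tissue, Benjamini-Hochberg adjustment over all genes tested). Diet calls needed an adjusted p under 0.05, a fold change over 1.5 and a mean over 5 FPM. Alternatives included DESeq2 1.42.0, no filter, only the groups compared, a covariate and leaving out libraries. Positions came from GENCODE M21 and sequences from RefSeq (GRCm38.p6). The fits were tested on simulated data.

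Nothing in the labels says that replicates are more than separate samples of a group. The p-values compare group means against the spread between these samples, estimated over the 4 groups of a tissue. Because of the near-identical pairs, 5 independent mice per group are not assured. Named genes were the 10 highest per tissue, at most the 10 largest called changes each way, the 3 smallest p where under 5 genes were called, members of the lncRNA lists, and the 5 largest and smallest tissue ratios, with overlapping partners. Members and lists were chosen with earlier results of these data known. A floor of 3 counts covers counting error only.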

Additional observations from a re-analysis of the deposited data

Results flagged for a closer look

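A part of the named genes, not all of them, was checked for single libraries apart from their group. Among these 140 groups of 5 libraries, 7 (5.00%) held a library whose gap to the nearest other exceeded 0.71 of the range. Chance gives about 1 in 20. In aorta, AI838599 read 62.8 CPM in R-10 (WT HFD) and 135 to 147 in the other 4. In kidney, C4a read 12.4 CPM in a6 (KO SD) against 5.03 to 6.57, and Gm43305 236 in a20 (WT SD) against 52.7 to 104. Neat1 stood at 1460 CPM in a13 (WT HFD) against 1070 to 1130. The kidney a3 (KO HFD) was apart for 3 genes, high for Gm15848 (33.5 CPM, others 19.9 to 22.3) and Oip5os1 (152, others 104 to 114) and low for Gm17750 (6.05, others 8.43 to 9.30).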

How the results depend on the processing

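By the adjusted p alone, the kidney counts for HFD rose from 12 to 21 genes in WT and from 9 to 19 in KO. Leaving out 1 kidney at a time gave 6 to 13 called genes in WT, with 6 without a14, and 7 to 12 in KO. Counts stayed within 1.5 times of these under DESeq2 size factors (12 and 10), the DESeq2 Wald test (12 and 13), no filter (10 and 10), only the groups compared (9 and 10), without a1 and a12 (13 and 10), with a clock score (12 and 11) and, chosen after seeing the data, without a8, a9 and a17 (11 and 11). Over all refits of called genes, 308 kept the call, 49 lost it and 0 changed sign. Of the named genes not called, 813 of the refits changed sign and 7 passed. This tally covers the named genes only. Other genes passed in some refits too, such as AI506816 and 2900005J15Rik in KO without a1 and a12. The aortic counts, and those for genotype and interaction in kidney, were 0 under each alternative run. The near-identical libraries carry labels of different groups, and which label is right cannot be told from the files. Poly(A) selection and low counts limit what can be seen of genes near 5 CPM. No paired analysis was possible because the groups share no replicate numbers.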
